A study of Mus musculus with 9 samples.

Results

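Integrins are membrane receptors made of 1 alpha and 1 beta chain, and the 38 mouse genes described here encode 19 integrin chains and 19 cytoplasmic proteins that join integrins to actin and to kinase signalling. The genes were chosen by symbol, as every row of the count table whose Ensembl identifier is annotated with a name on the list. All 38 were found among 55335 genes, and 31 of them had enough reads to be tested, among 13611 genes tested in all. The RNA came from the mouse breast carcinoma line D2A1-d, grown in serum-containing medium, and was sequenced in bulk as 9 libraries. The labels place 3 libraries in each of 3 groups: cells with hairpin shMed1 #2 and cells with hairpin shMed1 #4, both labelled as Med1 knockdown, and cells with the non-targeting hairpin NTC, labelled as wild type. Med1 encodes a subunit of the Mediator complex, which links transcription factors to RNA polymerase II. The series title names MED4 as the gene of interest, while every hairpin label here names Med1. All groups derive from the same line and were grown alike. The labels call the libraries of a group biological replicates without naming separate infections, so a p-value here measures the spread between these libraries and nothing wider, and that spread may be technical.

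An integrin binds a matrix or cell-surface ligand outside the cell, and which ligand it binds is set by the pairing of its alpha and beta chains. Talin and kindlin bind the beta tail and switch the receptor to its active form. Vinculin, zyxin and tensin then tie the cluster to actin, the ILK, PINCH and parvin complex forms a scaffold at the same site, and focal adhesion kinase and Src signal from it on the scaffold proteins paxillin and p130Cas. In breast carcinoma cells these sites carry adhesion to matrix, spreading and migration.

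Library totals lay between 8123918 and 8879982 counts, so that 3 counts, taken as the floor of detection, stood for 0.345 to 0.364 CPM, the count scaled to a common library size. The target Med1 had 22.1, 25.2 and 24.7 CPM in the shMed1 #2 libraries, 25.0, 26.6 and 25.5 CPM in the shMed1 #4 libraries and 85.6, 87.5 and 79.8 CPM in the NTC libraries. Of the 6 epithelial keratin and adhesion markers checked, Epcam was at 0 in all 9 libraries, and the list summed to 19.8 to 22.6 CPM with shMed1 #2, 41.6 to 52.0 CPM with shMed1 #4 and 56.9 to 58.4 CPM with NTC, so the labelled carcinoma carried little epithelial marker RNA. The 4 mesenchymal markers summed to 4634 to 4849 CPM with shMed1 #2, 4817 to 5035 CPM with shMed1 #4 and 4043 to 4221 CPM with NTC. Leukocyte markers summed to 0.813 to 1.38 CPM with shMed1 #2, 0.815 to 1.2 CPM with shMed1 #4 and 3.52 to 4.28 CPM with NTC, with Itgam, Itgax, Cd3e and Adgre1 at 0 throughout. The 4 endothelial markers stayed between 0.348 and 1.04 CPM in sum, and the 5 fibroblast and pericyte markers, of which Lum was at 0, summed to 73.7 to 81.5 CPM with shMed1 #2, 95 to 109 CPM with shMed1 #4 and 149 to 167 CPM with NTC. The part of these marker differences in the results was not tested.

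More of the 31 tested genes were higher than lower under each hairpin. With shMed1 #2 against NTC, 19 were called higher and 4 lower, where edgeR's quasi-likelihood test called 43.7% of all tested genes at an adjusted p under 0.05, 21.8% higher and 21.9% lower. With shMed1 #4 against NTC, 16 were called higher and 7 lower, where 28.2% of all tested genes were called, 14% higher and 14.1% lower. The median log2 fold change over the 31 genes was 0.32 with shMed1 #2 and 0.26 with shMed1 #4, and over all tested genes it was -0.0035 with shMed1 #2 and 0.00086 with shMed1 #4. The hairpin comparisons share the same 3 NTC libraries, so the calls of 1 are not independent of those of the other. For the mean of both hairpins against NTC, 17 genes were called higher and 5 lower, against 39.9% of all tested genes called, 19.7% higher and 20.2% lower. With library size alone as the scaling, which moves the median of all genes by less than 0.1, the same comparison gave 16 higher and 8 lower among these genes. Over all tested genes, that scaling gave 2384 higher and 3598 lower with shMed1 #2, against 2964 higher and 2983 lower with the scaling used here, and 2146 higher and 3305 lower for the mean of both hairpins, against 2680 higher and 2754 lower.

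Many of these genes are abundant, and abundant genes were called more often. Among the 4718 genes with a mean of at least 50 CPM, a minimum chosen after values were seen, 39% were called higher with shMed1 #2 and 25.8% with shMed1 #4. Of the 20 genes of the module in that class, 14 were called higher with shMed1 #2 and 12 with shMed1 #4. In the same class, 20.8% of all genes were called lower with shMed1 #2 and 16.3% with shMed1 #4, against 3 and 4 genes of the module.

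**Figure D1:**
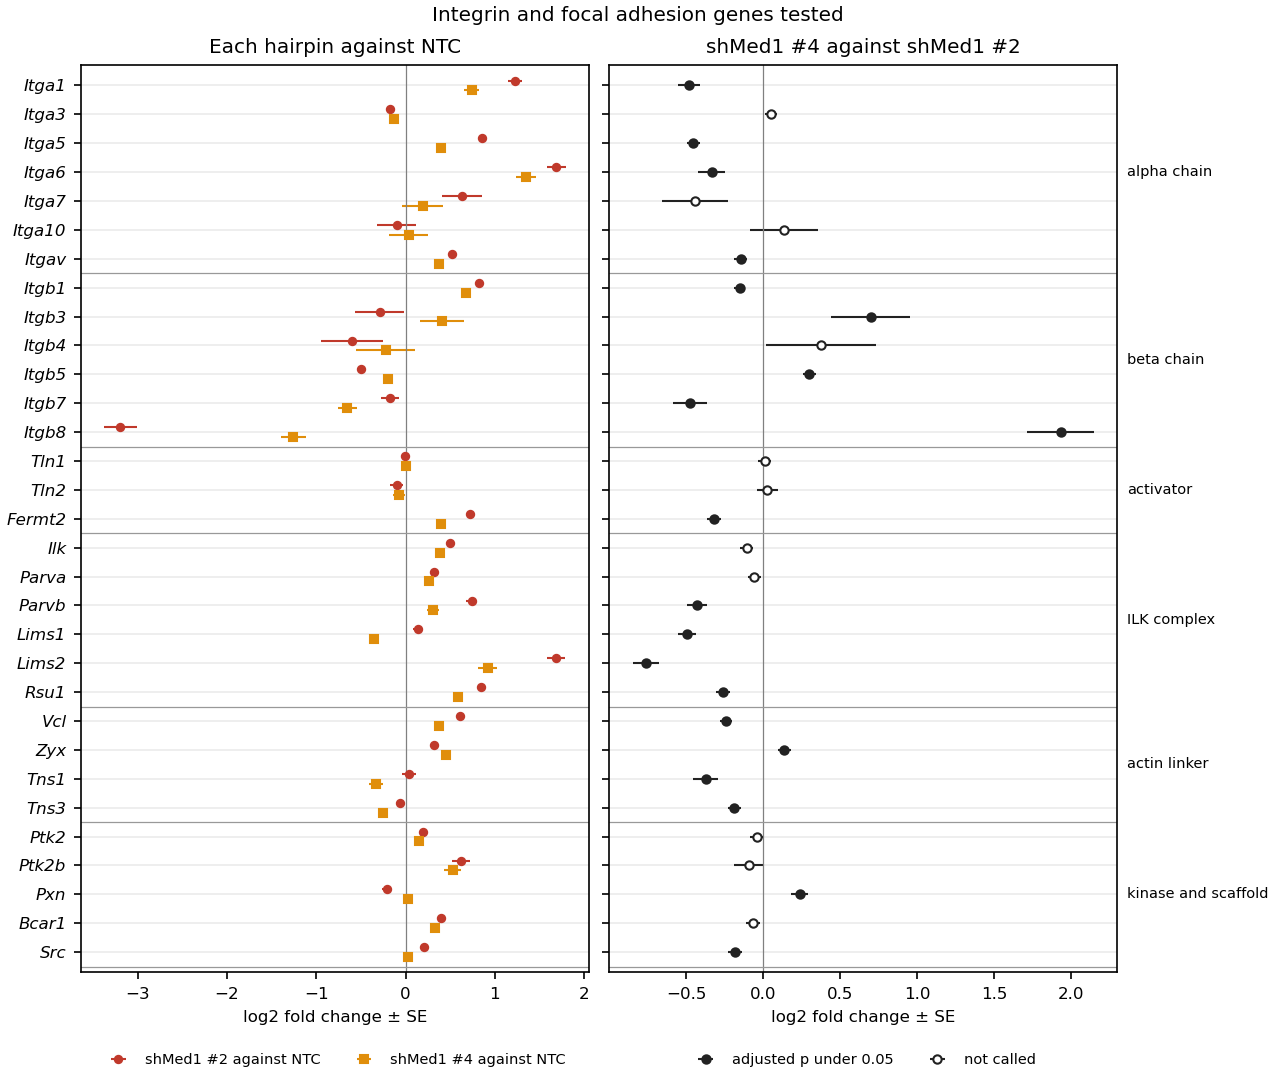
Log2 fold changes ± SE of the 31 tested genes, grouped by role, with each hairpin against NTC on the left and shMed1 #4 against shMed1 #2 on the right, where filled points passed at an adjusted p under 0.05. On the left most points lie right of 0, Itgb8 lies farthest left at -3.19 for shMed1 #2 and -1.26 for shMed1 #4, and Itga6 and Lims2 lie farthest right.

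The integrin chains moved in both directions. Itgb1, the shared beta chain of the collagen, laminin and fibronectin receptors, rose with both hairpins together with 4 of the alpha chains that pair with it, Itga1, Itga5, Itga6 and Itgav. Itgb5 and Itgb8, which pair with alpha v, fell with both hairpins, as did Itga3, the most abundant alpha chain. Of 13 chains tested, 6 rose and 3 fell with shMed1 #2, and 5 rose and 4 fell with shMed1 #4. That is 69.2% called with each hairpin, against 43.7% of all tested genes with shMed1 #2 and 28.2% with shMed1 #4, and the lower calls with shMed1 #2 were near the 21.9% of all tested genes called lower. RNA of whole cultures was measured, so a change in the share of cells with a transcript and a change in the amount per cell cannot be told apart.

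Levels per kilobase of annotated exon put a few chains far above the rest. Itga3 led the alpha chains in every group, at 98.1 ± 1.1 CPM per kb (SD, n = 3) with shMed1 #2, 102 ± 3.14 CPM per kb with shMed1 #4 and 111 ± 1.51 CPM per kb with NTC. Itga5 followed at 62.7 ± 0.767 CPM per kb with shMed1 #2, 45.7 ± 0.429 with shMed1 #4 and 34.7 ± 1.66 with NTC, and Itgav came next at 30.7 ± 0.419, 27.7 ± 0.298 and 21.4 ± 1.04 CPM per kb in the same groups. All other alpha chains were below 5 CPM per kb, with Itga6 and Itga1 the nearest. These neighbours did not differ beyond their spread in NTC cells, where Itga6 stood at 1.29 ± 0.229 and Itga1 at 1.27 ± 0.0278 CPM per kb. With the longest transcript as length, Itga6 stood at 2.70 and Itga1 at 2.15 CPM per kb in NTC cells. Summed over the alpha chains, Itga3 held 49.0% of the level per kb with shMed1 #2, 55.8% with shMed1 #4 and 64.8% with NTC, while Itga5 held 31.3%, 25.1% and 20.3% in the same groups.

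Among beta chains, Itgb1 stood at 372 ± 5.92 CPM per kb with shMed1 #2, 334 ± 1.52 CPM per kb with shMed1 #4 and 209.7 ± 4.61 CPM per kb with NTC, which was 84.3%, 80.3% and 68.4% of the summed beta level. Itgb5 came after it and held 13.7% with shMed1 #2, 17.9% with shMed1 #4 and 27.9% with NTC. Itgb7 was at 7.84 ± 0.468, 5.63 ± 0.673 and 8.85 ± 1.15 CPM per kb in those groups, and Itgb8, Itgb3 and Itgb4 were lower still. In shMed1 #4 cells Itgb8 at 0.762 ± 0.0774 and Itgb3 at 0.688 ± 0.172 CPM per kb did not differ beyond their spread. That holds for the exon length used here. With the longest transcript as length, Itgb8 stood at 1.00 and Itgb3 at 0.702 CPM per kb in those cells. The summed level was 200.1 ± 1.67 CPM per kb for alpha and 441 ± 5.81 CPM per kb for beta chains with shMed1 #2, 182 ± 3.00 and 416 ± 0.763 with shMed1 #4, and 171 ± 4.17 and 307 ± 5.14 with NTC.

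**Figure D2:**
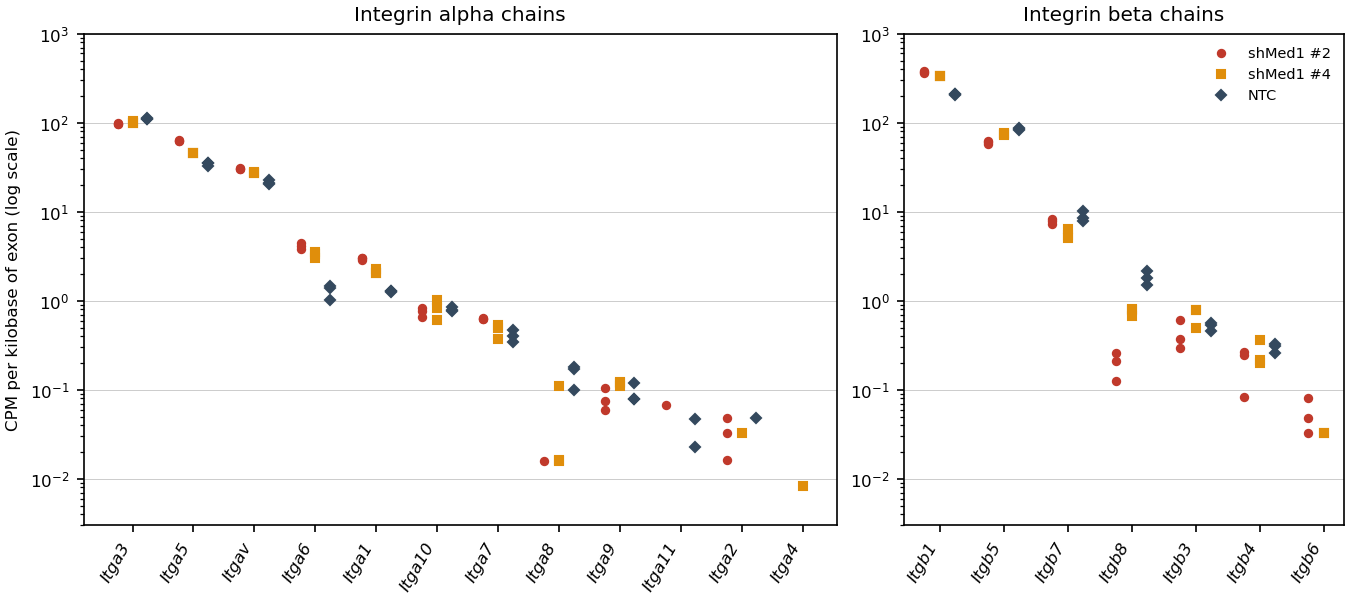
Level of each integrin alpha and beta chain in CPM per kb of annotated exon on a log axis, with 1 point per library for shMed1 #2, shMed1 #4 and NTC; libraries at 0 are not drawn. Itga3, Itga5 and Itgav lead the alpha chains in all 3 groups, and Itgb1 lies above every other beta chain.

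Promoter sequences of 4 genes that recur in the results are shown, each with at most 1 kind of motif marked: vinculin and kindlin-2, which rose and, of the 21 tested genes with a RefSeq window, were the ones holding a CArG box, and the beta chains with the highest level and the largest fall. A CArG box is the site bound by serum response factor, which controls many actin cytoskeleton genes. Each window is the 250 bases before the RefSeq start on GRCm38, printed 5′ to 3′ on the gene's own strand, with capitals marking the CArG box in Vcl and Fermt2 and the GC box, GGGCGG, in Itgb1. GC boxes also occur unmarked in Vcl, which has 4, and in Fermt2, which has 5, and a TEAD site, GGAATG, occurs unmarked in Vcl and in Itgb1. The window of Itgb8 has none of the motifs searched on either strand and so no capitals. Vcl lies at chr14:20929148-20929397 on the plus strand, Fermt2 at chr14:45530066-45530315 on the minus strand, Itgb1 at chr8:128685404-128685653 on the plus strand and Itgb8 at chr12:119238277-119238526 on the minus strand.
Vcl: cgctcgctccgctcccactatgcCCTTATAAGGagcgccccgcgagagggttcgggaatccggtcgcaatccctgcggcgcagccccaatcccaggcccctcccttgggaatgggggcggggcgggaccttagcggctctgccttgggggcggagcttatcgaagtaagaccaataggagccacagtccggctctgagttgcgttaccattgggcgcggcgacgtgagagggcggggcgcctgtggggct
Fermt2: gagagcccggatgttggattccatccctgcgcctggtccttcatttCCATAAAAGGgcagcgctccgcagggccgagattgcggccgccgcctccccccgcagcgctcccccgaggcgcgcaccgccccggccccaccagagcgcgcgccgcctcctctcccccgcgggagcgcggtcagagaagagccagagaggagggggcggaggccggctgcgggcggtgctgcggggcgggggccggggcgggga
Itgb1: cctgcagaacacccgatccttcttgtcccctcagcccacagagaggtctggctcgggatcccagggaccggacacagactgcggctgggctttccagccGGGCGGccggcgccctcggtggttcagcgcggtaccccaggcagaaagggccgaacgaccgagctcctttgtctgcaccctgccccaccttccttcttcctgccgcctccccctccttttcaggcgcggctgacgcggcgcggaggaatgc
Itgb8: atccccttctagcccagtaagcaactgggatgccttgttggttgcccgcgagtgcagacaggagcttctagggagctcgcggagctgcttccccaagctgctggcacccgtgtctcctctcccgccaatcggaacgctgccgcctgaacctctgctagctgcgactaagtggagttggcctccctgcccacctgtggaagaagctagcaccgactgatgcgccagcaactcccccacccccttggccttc
Both strands of all 32851 RefSeq promoter windows were searched, and 1.47% held a CArG box. Windows were found for 21 of the 31 tested genes, 26 windows in all, and the CArG box occurred in 2 of them. The GC box, which may overlap itself, occurred in 17 of the 26 windows and in 32.7% of all windows. The AP-1 site, TGANTCA, occurred in 1 of the 26 and in 6.75% of all, and the TEAD site, GGAATG, in 3 of the 26 and in 12.6% of all. A match says only that the letters are in the window.

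The laminin receptors moved in opposite directions by chain. Itga6, whose product binds laminin with beta 1 or beta 4, lies at chr2:71745616-71858416 on the plus strand of GRCm38. It had 36.9, 40.6 and 34.7 CPM in the shMed1 #2 libraries, 31.7, 30.0 and 27.4 CPM in the shMed1 #4 libraries and 13.1, 12.5 and 9.26 CPM in the NTC libraries. All 6 hairpin libraries were above all 3 NTC libraries. Its log2 fold change was 1.69 ± 0.11 (SE) with shMed1 #2, adjusted p = 2.49e-24, and 1.35 ± 0.11 with shMed1 #4, adjusted p = 9.5e-18. The log2 difference of shMed1 #4 from shMed1 #2 was -0.33, adjusted p = 0.00255. Itga3, whose product binds laminins with beta 1, averaged 560.0 ± 6.40 CPM (SD, n = 3) with shMed1 #2, 580.0 ± 18.0 CPM with shMed1 #4 and 634 ± 8.64 CPM with NTC. It fell by 0.18 on the log2 scale with shMed1 #2, adjusted p = 0.000103, and by 0.13 with shMed1 #4, adjusted p = 0.00886. The shMed1 #4 call was lost without shMed1 #4 replicate 1, with an adjusted p of 0.0625.

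The remaining laminin chains were scarce. Itga7, known as a laminin receptor of muscle, averaged 5.12 ± 0.0516 CPM with shMed1 #2, 3.77 ± 0.679 CPM with shMed1 #4 and 3.29 ± 0.517 CPM with NTC. Its log2 fold change passed with shMed1 #2, at 0.63 and an adjusted p of 0.0142, and not with shMed1 #4, at 0.19 and an adjusted p of 0.599. The difference between hairpins, -0.44 with a 95% interval of -0.87 to -0.018, did not pass, at an adjusted p of 0.120. The shMed1 #2 call was lost without NTC replicate 1, at an adjusted p of 0.0797, and with DESeq2, at 0.0573. Itgb4, the chain that joins alpha 6 in hemidesmosomes, averaged 1.38 ± 0.697 CPM with shMed1 #2, 1.81 ± 0.623 CPM with shMed1 #4 and 2.10 ± 0.250 CPM with NTC and passed in no comparison. Its log2 fold change was -0.60 with shMed1 #2, with a 95% interval of -1.29 to 0.094, and -0.22 with shMed1 #4, with an interval of -0.88 to 0.44. Per kb, the beta 4 level was 0.048 times the alpha 6 level with shMed1 #2, 0.079 times with shMed1 #4 and 0.23 times with NTC. These ratios depend on the length used. With the longest transcript as length, alpha 6 stood at 8.68, 6.88 and 2.70 CPM per kb in these groups, and beta 4 at 0.223, 0.292 and 0.339. Of 6 hemidesmosome partner genes listed, 3 were tested. Of these 1, Dst, which encodes a plakin linker, rose with shMed1 #2, at 0.23 and an adjusted p of 0.0288. That is 33.3% of those tested, where 43.7% of all tested genes were called with shMed1 #2 and 21.8% were called higher. Without shMed1 #2 replicate 2, without shMed1 #2 replicate 3 or with library size alone, 0 of the 3 passed, and without NTC replicate 3, 2 passed. With shMed1 #4 the log2 fold changes of Dst, Plec and Cd151 were 0.029, 0.061 and -0.058, at adjusted p-values of 0.822, 0.336 and 0.465. None passed, where 28.2% of all tested genes were called with shMed1 #4.

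The shared chain Itgb1 had 1497, 1512 and 1544 CPM in the shMed1 #2 libraries, 1366, 1371 and 1359 CPM in the shMed1 #4 libraries and 868, 865 and 834 CPM in the NTC libraries. The 3 groups did not overlap. On the log2 scale the change was 0.83 ± 0.038 with shMed1 #2, adjusted p = 5.37e-33, and 0.67 ± 0.038 with shMed1 #4, adjusted p = 7.67e-27. Between hairpins the log2 difference was -0.15, shMed1 #4 minus shMed1 #2, adjusted p = 0.000890.

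Among fibronectin receptors, Itga5, whose product binds fibronectin with beta 1, had 313, 306 and 309 CPM in the shMed1 #2 libraries, 226, 223 and 227 CPM in the shMed1 #4 libraries and 176, 176 and 162 CPM in the NTC libraries. The 3 groups stood apart, with shMed1 #4 between the others. The log2 fold change was 0.85 ± 0.044 with shMed1 #2, adjusted p = 1.73e-29, and 0.40 ± 0.045 with shMed1 #4, adjusted p = 1.11e-11. With shMed1 #4 against shMed1 #2 it was -0.46, adjusted p = 1.16e-14. The ratio of beta 1 to alpha 5 RNA per kb was 5.93 with shMed1 #2, 7.31 with shMed1 #4 and 6.04 with NTC. Itga4, an alternative fibronectin and VCAM1 receptor chain, had 0, 1 and 0 counts summed over the shMed1 #2, shMed1 #4 and NTC libraries and was not tested.

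Among collagen receptor alpha chains, Itga1 had the highest level per kb. It had 56.3, 53.4 and 55.8 CPM in the shMed1 #2 libraries, 38.2, 42.1 and 38.4 CPM in the shMed1 #4 libraries and 24, 23.9 and 23.0 CPM in the NTC libraries, again with no overlap among the 3 groups. The log2 fold change was 1.22 ± 0.080 with shMed1 #2, adjusted p = 1.41e-23, and 0.74 ± 0.084 with shMed1 #4, adjusted p = 1.02e-11. With shMed1 #4 the gene was lower than with shMed1 #2, at a log2 difference of -0.48, adjusted p = 1.15e-07. Itga10, a collagen chain known from cartilage, averaged 3.88 ± 0.464 CPM with shMed1 #2, 4.26 ± 1.10 CPM with shMed1 #4 and 4.17 ± 0.215 CPM with NTC and passed in no comparison. Its 95% interval was -0.55 to 0.34 with shMed1 #2 and -0.40 to 0.47 with shMed1 #4, so a change within these bounds was not detectable here. Of the 5186 exonic bases of Itga10, 1739 are shared with the gene Gm42957 on the same strand, and reads of that overlap cannot be assigned to either gene. The part of this overlap in the low Itga10 counts was not tested. Itga2, the collagen chain of many epithelia, had 6, 2 and 3 summed counts with shMed1 #2, shMed1 #4 and NTC, and Itga11 had 3, 0 and 3, so neither was tested.

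Receptors for the tripeptide RGD and for latent TGF-beta showed the largest fall. Itgav, the alpha chain they share, had 328, 335 and 326 CPM in the shMed1 #2 libraries, 295, 301 and 296 CPM in the shMed1 #4 libraries and 242, 228 and 219.6 CPM in the NTC libraries. All hairpin libraries lay above the NTC libraries. Against NTC its log2 fold change was 0.52 ± 0.043 with shMed1 #2, adjusted p = 5.39e-18, and 0.37 ± 0.043 with shMed1 #4, adjusted p = 3.03e-11.

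The beta partner Itgb8, which with alpha v binds and activates latent TGF-beta, lies at chr12:119158022-119238802 on the minus strand. It had 2.87, 1.39 and 2.30 CPM in the shMed1 #2 libraries, 7.45, 8.79 and 9.04 CPM in the shMed1 #4 libraries and 20.1, 16.5 and 23.9 CPM in the NTC libraries. No group overlapped another, and shMed1 #4 lay between the others. Itgb8 fell by 3.19 ± 0.18 on the log2 scale with shMed1 #2, adjusted p = 7.84e-26, and by 1.26 ± 0.14 with shMed1 #4, adjusted p = 8.52e-12. The shMed1 #4 level exceeded the shMed1 #2 level by 1.93 on the log2 scale, adjusted p = 1.77e-11. Per kb, beta 8 RNA was 0.00646 times the alpha v RNA with shMed1 #2, 0.0275 times with shMed1 #4 and 0.0851 times with NTC.

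Itgb5, which pairs with alpha v as a vitronectin receptor, averaged 215 ± 6.97 CPM with shMed1 #2, 265 ± 5.68 CPM with shMed1 #4 and 303 ± 9.20 CPM with NTC. It fell by 0.50 on the log2 scale with shMed1 #2, adjusted p = 6.95e-17, and by 0.20 with shMed1 #4, adjusted p = 0.000162. Beta 5 RNA per kb was 1.97 times the alpha v RNA with shMed1 #2, 2.69 times with shMed1 #4 and 3.99 times with NTC. Itgb3, the other vitronectin receptor chain, had 2.18, 1.74 and 3.57 CPM in the shMed1 #2 libraries, 4.65, 2.89 and 4.64 CPM in the shMed1 #4 libraries and 2.67, 3.13 and 3.36 CPM in the NTC libraries. The NTC libraries overlapped both hairpin groups. Neither hairpin passed against NTC, at an adjusted p of 0.415 with shMed1 #2 and 0.225 with shMed1 #4. The log2 difference of shMed1 #4 from shMed1 #2, 0.70, passed at an adjusted p of 0.0339. That call was lost without shMed1 #2 replicate 1 (adjusted p of 0.114), without shMed1 #2 replicate 2 (0.207), without shMed1 #4 replicate 1 (0.144) and without shMed1 #4 replicate 3 (0.142), and also with DESeq2, at 0.130, and with no filter on low counts, at 0.0511.

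Itgb6 and Itga8, further partners in this ligand class, were too low to be tested. Itgb6, an epithelial beta chain that with alpha v activates latent TGF-beta, had 10, 4 and 0 summed counts with shMed1 #2, shMed1 #4 and NTC. Itga8, which with beta 1 binds nephronectin, had 1, 9 and 28. In a fit with no filter on low counts, Itga8 had an adjusted p of 1.41e-05 with shMed1 #2 and 0.0563 with shMed1 #4, with fewer counts in both hairpin groups than in NTC. In the same fit Itgb6, with more counts in both hairpin groups, had an adjusted p of 0.0136 with shMed1 #2, 0.229 with shMed1 #4 and 0.0456 for the mean of both hairpins. Itga9, whose product binds tenascin-C with beta 1, had 16, 23 and 18 summed counts with shMed1 #2, shMed1 #4 and NTC.

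Itgb7, known from lymphocytes as the partner of alpha 4 and alpha E, had 21.7, 23.0 and 20.4 CPM in the shMed1 #2 libraries, 14.0, 15.2 and 17.6 CPM in the shMed1 #4 libraries and 21.7, 28.0 and 23.9 CPM in the NTC libraries. The shMed1 #4 libraries were the lowest 3 of the 9. It fell by 0.65 ± 0.11 on the log2 scale with shMed1 #4, adjusted p = 1.26e-06, and its log2 fold change of -0.17 with shMed1 #2 did not pass, adjusted p = 0.167. Between hairpins the log2 difference was -0.48, shMed1 #4 minus shMed1 #2, adjusted p = 0.000504. Its partner chain Itga4 was at 0 or 1 count per group, and the partner Itgae had 27, 30 and 34 summed counts with shMed1 #2, shMed1 #4 and NTC. Of 8 leukocyte and platelet chains listed, 3 were tested and 1, Itgb2, was lower with both hairpins. Its log2 fold change was -1.98 with shMed1 #2 and -1.84 with shMed1 #4. That is 33.3% of those tested, where 21.9% of all tested genes were called lower with shMed1 #2 and 14.1% with shMed1 #4. Itgb2 is also on the leukocyte marker list, and at 0.884 ± 0.401 CPM with shMed1 #2, 0.982 ± 0.258 CPM with shMed1 #4 and 3.53 ± 0.440 CPM with NTC it made up most of that list's sum given above. The part of that sum in the Itgb7 result was not tested.

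The ligands of these receptors, 32 genes of which 22 were tested, were split in direction. With shMed1 #2, 8 rose and 9 fell, with shMed1 #4 9 rose and 6 fell, and the list's median log2 fold change was 0.022 with shMed1 #2 and 0.075 with shMed1 #4. These calls are 77.3% of the list with shMed1 #2 and 68.2% with shMed1 #4, against 43.7% and 28.2% of all tested genes. For the mean of both hairpins, the largest changes were falls of Lama3, Spp1 and Vcam1 and a rise of Lamb3. Lama3, the alpha chain of an epithelial laminin, averaged 0.347 ± 0.202 CPM with shMed1 #2, 0.781 ± 0.165 CPM with shMed1 #4 and 2.31 ± 0.923 CPM with NTC. Its level was near the floor of 3 counts with shMed1 #2, at 2, 5 and 2 counts. It had 7, 5 and 8 counts in the shMed1 #4 libraries and 15, 28 and 15 in the NTC libraries. Lamb3, the beta chain of the same laminin, averaged 6.85 ± 0.465 CPM with shMed1 #2, 3.01 ± 0.848 CPM with shMed1 #4 and 2.19 ± 0.413 CPM with NTC. It rose with shMed1 #2 by 1.64 on the log2 scale, adjusted p = 4.69e-09, and did not pass with shMed1 #4, at 0.46 and an adjusted p of 0.213. Spp1, which encodes the RGD ligand osteopontin, averaged 142 ± 6.39 CPM with shMed1 #2, 415 ± 1.18 CPM with shMed1 #4 and 899 ± 103 CPM with NTC. Vcam1, the ligand of alpha 4 integrins, averaged 11.1 ± 0.183 CPM with shMed1 #2, 30.5 ± 1.61 CPM with shMed1 #4 and 65.8 ± 1.11 CPM with NTC. The chains Lamb1, Lamc1, Lama5, Col4a1 and Col4a2 of basement membrane laminin and collagen IV were among those called higher with both hairpins. Fn1, which encodes fibronectin, was called lower with shMed1 #2 and higher with shMed1 #4, each against NTC. It was also called higher with shMed1 #4 against shMed1 #2.

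**Figure D3:**
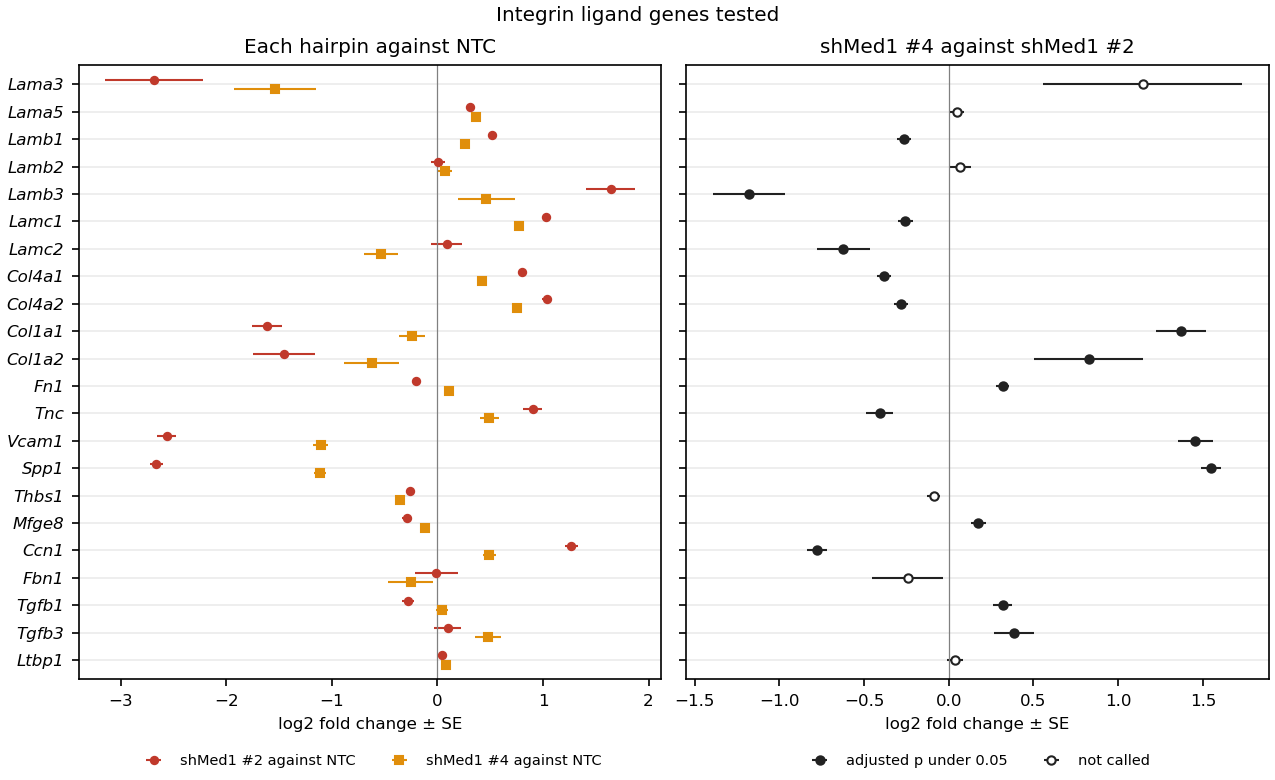
Log2 fold changes ± SE of the 22 tested integrin ligand genes, with each hairpin against NTC on the left and shMed1 #4 against shMed1 #2 on the right, where filled points passed at an adjusted p under 0.05. Lama3, Spp1 and Vcam1 lie farthest left of 0 for shMed1 #2, and Lamb3 lies farthest right.

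Of the 3 tested proteins that switch integrins on, 1 was called in any comparison. That is 33.3%, where 43.7% of all tested genes were called with shMed1 #2 and 28.2% with shMed1 #4. Fermt2, which encodes kindlin-2 and whose promoter is shown above, had 228, 227 and 221 CPM in the shMed1 #2 libraries, 178, 183 and 181 CPM in the shMed1 #4 libraries and 139, 137 and 134 CPM in the NTC libraries. The 3 groups did not overlap. This gave a log2 fold change of 0.72 ± 0.046 with shMed1 #2, adjusted p = 3.85e-24, and 0.40 ± 0.047 with shMed1 #4, adjusted p = 3.65e-11. With shMed1 #4 against shMed1 #2 the log2 difference was -0.32, adjusted p = 9.35e-09. The talin Tln1 averaged 689 ± 18.2 CPM with shMed1 #2, 693 ± 42.2 CPM with shMed1 #4 and 691 ± 51.8 CPM with NTC, and its log2 fold changes had 95% intervals of -0.092 to 0.083 with shMed1 #2 and -0.083 to 0.092 with shMed1 #4. Tln2 averaged 51.6 ± 2.72 CPM with shMed1 #2, 52.6 ± 2.74 CPM with shMed1 #4 and 55.3 ± 3.67 CPM with NTC, with intervals of -0.24 to 0.037 and -0.21 to 0.063. Tln1 and Tln2 passed in none of the comparisons. Fermt1, the kindlin of epithelia, had no count in any library, which leaves up to 0.345 to 0.364 CPM per library at the floor of 3 counts. Of 14 tested genes of integrin activation and traffic, 4 rose with each hairpin. That is 28.6% of the list called with each, below the 43.7% of all tested genes with shMed1 #2 and near the 28.2% with shMed1 #4. All of these calls were higher, where 21.8% of all tested genes were called higher with shMed1 #2 and 14% with shMed1 #4. Only Rapgef1 and Dab2 were called with both hairpins. Dab2, a clathrin adaptor for integrin uptake, changed most, at a log2 fold change of 0.79 with shMed1 #2 and 0.29 with shMed1 #4.

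All 6 genes of the ILK scaffold were called with each hairpin, 6 higher with shMed1 #2 and 5 higher and 1 lower with shMed1 #4, at a median log2 fold change of 0.62 with shMed1 #2 and 0.35 with shMed1 #4. Of all tested genes, 21.8% were called higher with shMed1 #2 and 14% with shMed1 #4, and the shMed1 #2 call of Lims1 was lost under several alternatives given with that gene. Ilk, which encodes the pseudokinase at the centre of the complex, had 346, 328 and 335 CPM in the shMed1 #2 libraries, 311, 304 and 323 CPM in the shMed1 #4 libraries and 251, 235 and 232 CPM in the NTC libraries. The hairpin libraries all lay higher than the NTC libraries. The log2 fold change was 0.49 ± 0.043 with shMed1 #2, adjusted p = 7.42e-17, and 0.39 ± 0.043 with shMed1 #4, adjusted p = 7.89e-12. Of the 2744 exonic bases of Ilk, 2106 lie opposite exons of Taf10 on the other strand, and no source used here states whether counting used strand, so reads of the overlap cannot be assigned to either gene. Taf10 itself had a log2 fold change of 0.22 with shMed1 #2 and 0.17 with shMed1 #4.

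The PINCH adaptors, which bind ILK, differed from each other. Lims2, which encodes PINCH2, had 46.4, 40.6 and 41.7 CPM in the shMed1 #2 libraries, 23.9, 26.2 and 25.9 CPM in the shMed1 #4 libraries and 13.3, 15.1 and 11.7 CPM in the NTC libraries. The groups were apart, with shMed1 #4 in the middle. Its log2 fold change was 1.68 ± 0.099 with shMed1 #2, adjusted p = 3.22e-26, and 0.92 ± 0.11 with shMed1 #4, adjusted p = 3.25e-11, and the log2 difference of shMed1 #4 from shMed1 #2 was -0.76, adjusted p = 2.35e-11. Gpr17, whose exons on the other strand lie opposite 188 of the 3060 exonic bases of Lims2, had a log2 fold change of 1.63 with shMed1 #2, adjusted p = 1.33e-11, and 0.55 with shMed1 #4, adjusted p = 0.0565. Lims1, which encodes PINCH1, had 84.4, 94.3 and 92.7 CPM in the shMed1 #2 libraries, 63.4, 64.6 and 64.5 CPM in the shMed1 #4 libraries and 84.7, 79.8 and 81.4 CPM in the NTC libraries. The shMed1 #4 libraries were below all others. It fell by 0.35 ± 0.060 on the log2 scale with shMed1 #4, adjusted p = 1.82e-06, and the log2 difference of shMed1 #4 from shMed1 #2 was -0.49, adjusted p = 1.1e-10. The call with shMed1 #2, 0.14 at an adjusted p of 0.0376, was lost when any of 4 libraries was left out, at 0.172 without shMed1 #2 replicate 2, 0.121 without shMed1 #2 replicate 3, 0.130 without NTC replicate 2 and 0.0893 without NTC replicate 3, with DESeq2 (0.0892), with library size alone (0.188), with no filter (0.0617) and with a stricter filter (0.0667). Per kb, Lims1 stood at 18.5 ± 1.09 CPM per kb with shMed1 #2, 13.1 ± 0.133 with shMed1 #4 and 16.8 ± 0.516 with NTC. Lims2 stood at 14.0 ± 1.01, 8.27 ± 0.418 and 4.37 ± 0.551 in the same groups. With the longest transcript as length, Lims1 stood at 20.9, 14.8 and 18.9 CPM per kb and Lims2 at 23.0, 13.5 and 7.15. The order of the PINCH genes with shMed1 #2 thus depends on the length used.

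The parvins, which join ILK to actin, both rose. Parvb had 79.7, 83.2 and 70.5 CPM in the shMed1 #2 libraries, 58.1, 55.2 and 59.6 CPM in the shMed1 #4 libraries and 48.0, 47.4 and 44.5 CPM in the NTC libraries. The 3 groups did not overlap. The change on the log2 scale was 0.74 ± 0.067 with shMed1 #2, adjusted p = 2.69e-16, and 0.31 ± 0.070 with shMed1 #4, adjusted p = 0.000302. Parva, the more abundant per kb, averaged 309 ± 9.94 CPM with shMed1 #2, 297 ± 16.3 CPM with shMed1 #4 and 248 ± 4.12 CPM with NTC, with log2 fold changes of 0.32 and 0.26 and adjusted p-values of 3.15e-09 with shMed1 #2 and 1.61e-06 with shMed1 #4. Rsu1, which encodes a Ras suppressor that binds PINCH1, had 259, 271 and 255 CPM in the shMed1 #2 libraries, 229, 219 and 205 CPM in the shMed1 #4 libraries and 137, 152 and 146 CPM in the NTC libraries. The 3 groups did not overlap. On the log2 scale Rsu1 rose by 0.85 ± 0.047 with shMed1 #2, adjusted p = 9.63e-28, and 0.59 ± 0.048 with shMed1 #4, adjusted p = 6.18e-18.

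Among the proteins that tie adhesions to actin, vinculin and zyxin rose with both hairpins, and the tensins Tns1 and Tns3 fell with shMed1 #4. Vinculin binds talin and actin under tension. Vcl had 629, 642 and 612 CPM in the shMed1 #2 libraries, 524, 530.3 and 539 CPM in the shMed1 #4 libraries and 427, 421 and 383 CPM in the NTC libraries. The 3 groups did not overlap. On the log2 scale Vcl rose by 0.61 ± 0.041 with shMed1 #2, adjusted p = 7.59e-23, and 0.37 ± 0.041 with shMed1 #4, adjusted p = 5.47e-12. Exons of Ap3m1 on the other strand lie opposite 2090 of the 8191 exonic bases of Vcl, and reads of that overlap cannot be assigned to either gene. Ap3m1 had log2 fold changes of 0.55 with shMed1 #2 and 0.31 with shMed1 #4. Zyx, which gathers actin-building proteins at strained adhesions, averaged 629 ± 41.8 CPM with shMed1 #2, 693 ± 34.1 CPM with shMed1 #4 and 504 ± 12.8 CPM with NTC, with log2 fold changes of 0.32 with shMed1 #2, adjusted p = 9.91e-10, and 0.46 with shMed1 #4, adjusted p = 4.91e-15. Its log2 difference of shMed1 #4 from shMed1 #2, 0.14, passed at an adjusted p of 0.00857 and did not pass without shMed1 #2 replicate 2 (0.0682), shMed1 #2 replicate 3 (0.120) or shMed1 #4 replicate 3 (0.0555). Tensins bind actin and the beta tail. Tns1 averaged 42.0 ± 1.90 CPM with shMed1 #2, 32.4 ± 0.291 CPM with shMed1 #4 and 40.7 ± 4.10 CPM with NTC. It fell by 0.33 on the log2 scale with shMed1 #4, adjusted p = 0.000843, and was not called with shMed1 #2, at 0.044. Tns3 averaged 277 ± 9.42 CPM with shMed1 #2, 243 ± 4.09 CPM with shMed1 #4 and 289.8 ± 8.44 CPM with NTC. It fell by 0.25 with shMed1 #4, adjusted p = 1.46e-06, and was not called with shMed1 #2, at -0.067. Tns1 and Tns3 were lower with shMed1 #4 than with shMed1 #2. The log2 differences were -0.37 for Tns1, adjusted p = 0.000148, and -0.19 for Tns3, adjusted p = 0.000418. Another tensin, Tns2, went the other way. Its log2 fold change was -0.25 with shMed1 #2, adjusted p = 0.000111, and 0.15 with shMed1 #4, adjusted p = 0.0270. With shMed1 #4 against shMed1 #2 the log2 difference of Tns2 was 0.39, adjusted p = 6.79e-09. The tensin Tns4 passed in none of the comparisons.

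Among kinases and scaffolds the largest change was that of Ptk2b, which encodes the focal adhesion kinase relative PYK2. It had 26.8, 26.5 and 27.9 CPM in the shMed1 #2 libraries, 26.3, 25.0 and 24.7 CPM in the shMed1 #4 libraries and 17.5, 17.1 and 18.2 CPM in the NTC libraries. The 3 groups did not overlap. The rise on the log2 scale was 0.62 ± 0.099 with shMed1 #2, adjusted p = 1.7e-07, and 0.53 ± 0.10 with shMed1 #4, adjusted p = 1.72e-05. The hairpin groups lay close together, and their log2 difference, -0.094, did not pass, adjusted p = 0.509. Ptk2, which encodes focal adhesion kinase, stood at 14.4 ± 0.315 CPM per kb with shMed1 #2, 14.0 ± 0.0856 with shMed1 #4 and 12.6 ± 0.0507 with NTC, against 3.66 ± 0.101, 3.43 ± 0.114 and 2.38 ± 0.0736 CPM per kb for Ptk2b in the same groups. Ptk2 rose by 0.20 on the log2 scale with shMed1 #2, adjusted p = 0.000272, and by 0.15 with shMed1 #4, adjusted p = 0.00758. Bcar1, which encodes the scaffold p130Cas, averaged 196 ± 13.3 CPM with shMed1 #2, 188 ± 2.50 CPM with shMed1 #4 and 149 ± 2.22 CPM with NTC. It rose by 0.40 with shMed1 #2, adjusted p = 2.25e-11, and by 0.33 with shMed1 #4, adjusted p = 1.99e-08. Src, the kinase that partners focal adhesion kinase, averaged 209 ± 4.87 CPM with shMed1 #2, 184 ± 5.62 CPM with shMed1 #4 and 181 ± 8.11 CPM with NTC. It passed with shMed1 #2, at 0.20 and an adjusted p of 0.000126, and not with shMed1 #4, at 0.022 and 0.765. For the mean of both hairpins Src had 0.11 at an adjusted p of 0.0175, a call lost without NTC replicate 3 (0.176) and with library size alone (0.117). Pxn, which encodes the adaptor paxillin, averaged 82.2 ± 1.14 CPM with shMed1 #2, 96.9 ± 2.49 CPM with shMed1 #4 and 94.7 ± 5.86 CPM with NTC. It fell by 0.21 with shMed1 #2, adjusted p = 0.00175, and was not called with shMed1 #4, at 0.032 and an adjusted p of 0.718.

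**Figure D4:**
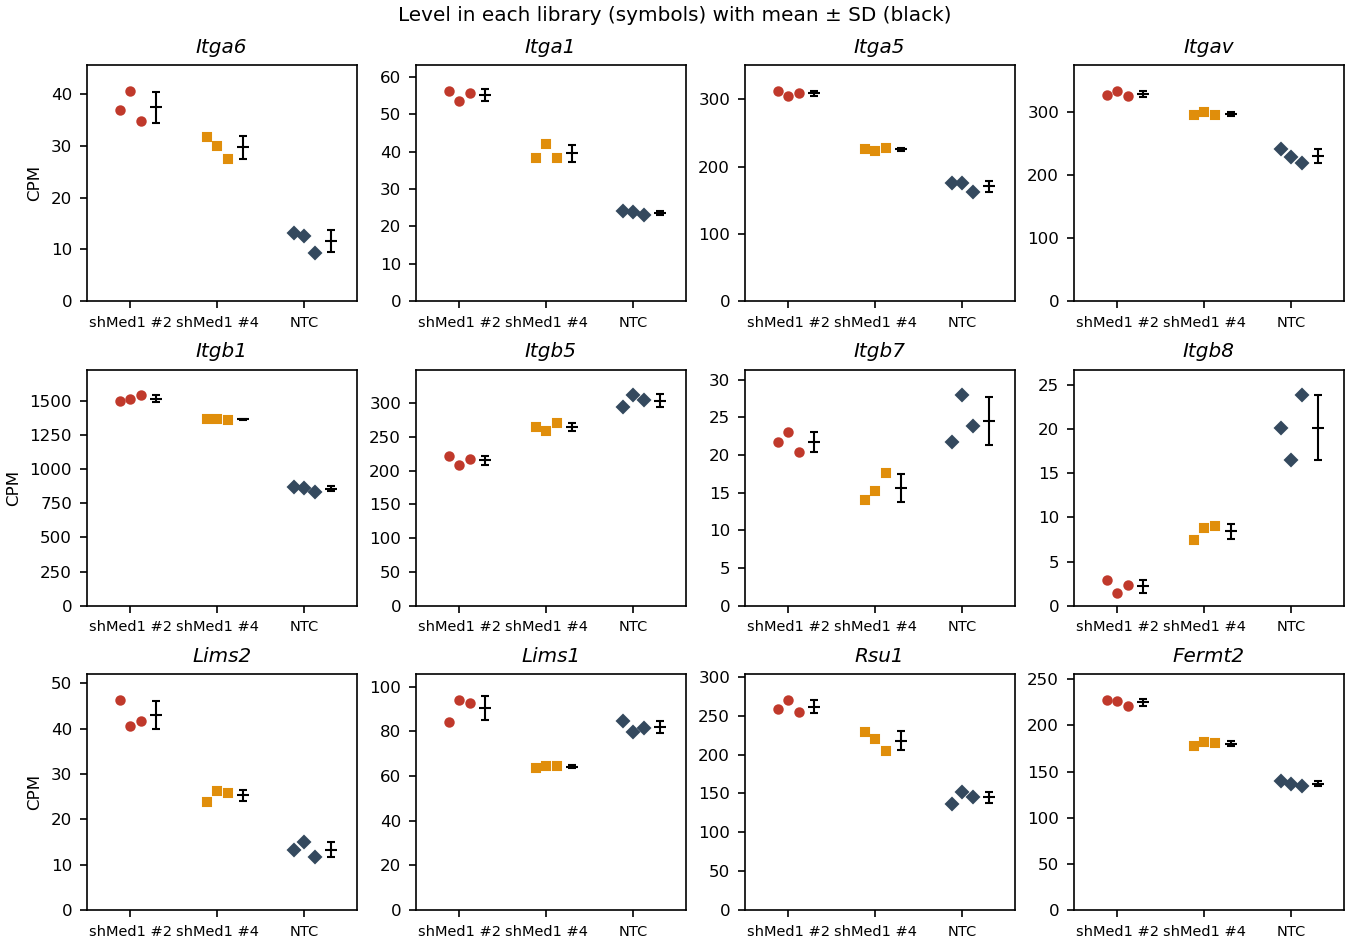
CPM in each of the 9 libraries for 12 of the genes given in every sample or by group mean, 1 panel per gene, with shMed1 #2, shMed1 #4 and NTC from left to right and the mean ± SD beside the points. Itgb8 and Itgb5 are lowest with shMed1 #2, Itgb7 and Lims1 are lowest with shMed1 #4, and the other 8 are lowest with NTC.

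The hairpins differed from each other in most of these genes. With shMed1 #4 against shMed1 #2, 5 genes were called higher and 15 lower, where 26% of all tested genes were called, 12.9% higher and 13.1% lower, and the median log2 difference was -0.15 over the 31 genes and 0.0083 over all tested genes. The 5 higher were Itgb3, Itgb5, Itgb8, Zyx and Pxn, and without shMed1 #4 replicate 3 their number was 3. Among the 4718 genes with a mean of at least 50 CPM, 14.9% were called higher and 23.9% lower, against 3 higher and 10 lower of the 20 genes of the module in that class. The 15 lower included Itga1, Itga5, Itga6, Itgav and Itgb1 among the chains and Fermt2, Vcl, Parvb, Lims2 and Rsu1 among the cytoplasmic proteins. All of these had risen with both hairpins. Of the rest, Itgb7, Lims1, Tns1 and Tns3 were called lower with shMed1 #4 against NTC, and Src was not called with that hairpin. Itgb8 had the largest difference, described above, with shMed1 #4 between shMed1 #2 and NTC. The NTC libraries are on neither side of this difference, but they share in the scaling and in the estimate of spread behind its adjusted p. Med1 itself did not pass, at a mean of 25.7 CPM in shMed1 #4 cells against 24 CPM in shMed1 #2 cells, adjusted p = 0.461.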

How the data were processed

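RNA-seq was read from 9 libraries in 3 groups of 3. The authors deposited whole-number read counts per Ensembl gene, 1 table per library. The submitters' processing notes name the tools STAR and HTSeq and the builds GRCm38 and mm10. No source used here gives tool versions, the annotation release or the strand setting. All values given here were computed from those deposited counts.

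Of 55335 gene identifiers, 55154 matched GENCODE M21, which supplied symbols, GRCm38 positions and exon lengths. Genes passing edgeR's filterByExpr were tested, 13611 in all, with TMM scaling and edgeR's quasi-likelihood test (edgeR 4.0.16, limma 3.58.1, R 4.3.3), a coefficient per group over all 9 libraries and Benjamini-Hochberg adjustment over all tested genes. Calls were made at an adjusted p under 0.05. CPM uses TMM-scaled library sizes, and fold changes are group over group on the log2 scale. Low-count genes have wide intervals, which cover the spread between libraries only. The fit was tested on simulated data. Alternatives were DESeq2 1.42.0, other scalings and filters, a replicate block, fits on the groups compared and leaving out each library.

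The genes and lists were chosen with earlier results of these data known. Genes called in the mean of both hairpins, or between hairpins, with a log2 change of at least 0.4 are given in every library, the others by group mean, and up to 4 genes per pathway list are named by size of change. Promoter windows come from RefSeq on GRCm38, and figures were drawn with matplotlib 3.10.9.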

Additional observations from a re-analysis of the deposited data

How the results depend on the processing

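Of 88 calls among 124 pairs of gene and comparison, 82 kept their call and direction under every alternative tried, 6 lost the call under at least 1, and 0 changed direction. The 6 are described with their genes above, and 5 further pairs passed only under an alternative. Of 174 counts of calls under alternatives, 2 moved by over 1.5 times. With library size alone as the scaling, 8 genes of the module were called lower for the mean of both hairpins, against 5. When a library was left out, the genes called higher with shMed1 #4 against shMed1 #2 numbered between 3 and 6, against 5, with the lowest without shMed1 #4 replicate 3. The cause was not tested. Every fold change that turned in sign was of a gene not called in that comparison. With library size alone, Tns1 was -0.0049 with shMed1 #2, Tln1 -0.020 and Src -0.0024 with shMed1 #4, and Tln1 -0.036 for the mean of both hairpins. With the stricter filter, Tln1 was -0.0049 with shMed1 #4 and -0.014 for the mean. When each library was left out, Tln1 ranged from -0.054 to 0.055 with shMed1 #2, -0.046 to 0.063 with shMed1 #4, -0.050 to 0.059 for the mean and -0.035 to 0.054 between hairpins. Likewise Tns1 ranged from -0.036 to 0.095 with shMed1 #2, Pxn from -0.015 to 0.072 and Src from -0.012 to 0.055 with shMed1 #4, Itga10 from -0.16 to 0.21 with shMed1 #4, -0.13 to 0.055 for the mean and -0.062 to 0.31 between hairpins, Itgb3 from -0.11 to 0.16 for the mean, and Tln2 from -0.019 to 0.069 between hairpins.

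With the replicate number as a block, 19 genes of the module were called higher and 4 lower with shMed1 #2, 16 and 7 with shMed1 #4, and 5 and 15 with shMed1 #4 against shMed1 #2, and no call among them changed. Deviations of same-numbered libraries from their group means correlated at -0.041 to 0.042, so no deviation shared by replicate number was seen. The labels do not say whether same-numbered libraries were handled together, and these correlations cannot tell. Taking the longest transcript in place of the exon union moved the chain shares by at most 3.52 percentage points. For 9 of 18 shares the move exceeded the SD of that chain's level, taken as a percent of the mean summed level. Levels per kb of single genes also depend on that choice, and the ratios between paired chains were not recomputed with it. Of 696 counts of calls in the pathway lists, 61 moved by over 1.5 times. At library totals from 8123918 counts, chains such as Itga2, Itga4 and Itga11 were too low to test.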

Other observations

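Other proteins of focal adhesions, a list of 31 genes of which 28 were tested, were called higher more often than lower. With shMed1 #2, 14 rose and 2 fell, with shMed1 #4 15 rose and 2 fell, and the list's median log2 fold change was 0.14 with shMed1 #2 and 0.16 with shMed1 #4, against -0.0035 and 0.00086 over all tested genes. Calls made up 57.1% of the list with shMed1 #2 and 60.7% with shMed1 #4. Over all tested genes, 21.8% were called higher and 21.9% lower with shMed1 #2, and 14% higher and 14.1% lower with shMed1 #4. Among genes with a mean of at least 50 CPM, 39% were called higher with shMed1 #2 and 25.8% with shMed1 #4. Csrp1, a LIM protein of actin bundles, averaged 464 ± 11.4 CPM (SD, n = 3) with shMed1 #2, 338 ± 10.8 CPM with shMed1 #4 and 254 ± 9.09 CPM with NTC, and rose by 0.87 with shMed1 #2 and by 0.41 with shMed1 #4 on the log2 scale. Palld, which crosslinks actin, rose by 0.67 with shMed1 #2 and by 0.25 with shMed1 #4, and Lasp1, an actin-binding LIM protein, rose by 0.43 and by 0.39. Sorbs3, which encodes the vinculin partner vinexin, fell by 0.74 with shMed1 #2 and by 0.53 with shMed1 #4.

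Membrane proteins that associate with integrins were split. Of 11 tested, 5 rose and 3 fell with shMed1 #2, and 5 rose and 2 fell with shMed1 #4, where DESeq2 called 0 lower. Calls made up 72.7% of the list with shMed1 #2 and 63.6% with shMed1 #4, against 43.7% and 28.2% of all tested genes, and the lower calls were near the 21.9% and 14.1% of all tested genes called lower. Plaur, the urokinase receptor, averaged 215 ± 7.07 CPM with shMed1 #2, 154 ± 2.77 CPM with shMed1 #4 and 93.0 ± 4.79 CPM with NTC, and rose by 1.21 with shMed1 #2 and by 0.73 with shMed1 #4. Cd47 and the tetraspanin Cd63 were also called higher with both hairpins. Sdc1, a heparan sulfate proteoglycan, had a log2 fold change of -0.19 with shMed1 #2, adjusted p = 0.000902, and -0.14 with shMed1 #4, adjusted p = 0.0263.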
